A study of Homo sapiens with 12 samples.

Results

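Polyamine enzymes and antizymes are described here by 8 genes, which were chosen by symbol from the 38716 gene symbols of the deposited tables. ODC1, AMD1, SRM and SMS encode the enzymes that make polyamines, and SAT1 encodes the enzyme that acetylates them. OAZ1 and OAZ2 encode antizymes, and AZIN1 encodes the antizyme inhibitor. Their mRNA and ribosome footprints were measured in IMR90, a primary line of human fetal lung fibroblasts, in 2 states called proliferating (Pro) and senescent (Sen). Senescent cells had been passaged continuously until they no longer divided, and no other treatment separates the states in the labels. Each state was grown as 3 independent cultures, which were harvested in a lysis buffer with cycloheximide, a blocker of translation elongation. Every lysate gave 1 Ribo-seq library, which holds the RNA fragments that ribosomes protect from RNase, and 1 RNA-seq library of poly(A)-enriched RNA, for 12 libraries in all. The line was used as 2 isolates that the labels do not assign to samples, and for proliferating cells the names of the RNA-seq files hold a tag resembling DMSO, which no label explains.

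Polyamines are small, positively charged molecules that bind RNA and are needed for growth. ODC1 (ornithine decarboxylase) turns ornithine into putrescine. AMD1 (adenosylmethionine decarboxylase) makes the aminopropyl donor that SRM (spermidine synthase) and SMS (spermine synthase) use to build spermidine and spermine. SAT1 (spermidine/spermine acetyltransferase) marks both products for breakdown or export. Antizymes bind ODC1, send it to the proteasome and block polyamine uptake, and AZIN1, an inactive relative of ODC1, binds antizymes in its place. Translation is part of this control, because high polyamine levels favour a +1 shift of reading frame on antizyme mRNAs, and upstream reading frames on several of the other mRNAs limit ribosome access to the coding sequence (CDS).

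Sequences of the antizyme frameshift sites and of short upstream frames are shown first, for reference. The footprint counts below are totals per region and place no footprint on any of them. Whether the upstream frames shown act in this control was not tested. The antizyme windows contain the codon before the stop and the stop itself in capitals, where a ribosome that stays in frame ends and one that shifts reads on. In the reference transcripts (GENCODE v44lift37 on GRCh37), the OAZ1 window is chr19:2271427-2271456 (plus strand). Its stop follows 68 sense codons and is followed by 160 sense codons in the shifted frame. The OAZ2 window is chr15:64983700-64983729 (minus strand). Its stop follows 32 sense codons, with 157 after the shift, and both windows match at 29 of 30 bases. Of the short upstream frames, those of AMD1 and SAT1 are shown, namely that of AMD1, at chr6:111195999-111196019 (plus strand, 6 sense codons), and the first of SAT1, at chrX:23801352-23801366 (plus strand, 4 sense codons), each with its start and stop codons in capitals. All are written 5′ to 3′.
OAZ1: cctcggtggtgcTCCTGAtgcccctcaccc
OAZ2: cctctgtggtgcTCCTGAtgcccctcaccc
AMD1: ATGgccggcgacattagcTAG
SAT1: ATGgtgccagccTGA

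Promoters are shown because ODC1 is a known target of MYC, which binds the E-box CACGTG, a motif that reads the same on both strands. RefSeq windows on GRCh38.p14, each 300 bases long from before to just after a gene start, were found for 7 of the 8 genes. Only ODC1 and SRM held the motif among these 7, against 8.77% of the 27305 genes with such a window. In ODC1 it lay at positions -29 and 5 from one of its 2 annotated starts, within chr2:10448024-10448053 and chr2:10447990-10448019 (minus strand). In SRM it lay at position -199, within chr1:11060200-11060229 (minus strand). The E-box is in capitals.
ODC1, upstream: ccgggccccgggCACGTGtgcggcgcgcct
ODC1, downstream: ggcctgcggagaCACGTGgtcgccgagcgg
SRM: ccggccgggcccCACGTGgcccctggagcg

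To obtain an mRNA level, RNA-seq reads were added over both UTRs and the CDS of a gene, whereas ribosome-protected fragments (RPF) were taken from the CDS alone. Between 7902427 and 14144455 reads fell in these regions per RNA-seq library. Ribo-seq libraries held from 54421 to 1718521 CDS reads, and Pro 1 and Sen 2 were the shallow ones, where 3 reads already equal 55.1 and 54.8 CPM of the library's CDS reads. CPM stands for counts scaled to a common library total. All 8 fibroblast markers were tested in both layers, while none of the 7 epithelial and endothelial markers passed the filter on low counts, with summed RNA-seq levels of at most 1.76 CPM for either list and no RNA-seq read of CDH5 or CDS read of SFTPC. Of the 3 leukocyte markers only CD68, which fibroblasts also express, was tested, and the summed level of that list ran from 19.7 to 21.8 CPM in Pro and from 30.2 to 33.1 CPM in Sen. CD3E had no CDS read, PTPRC had at most 2 RNA-seq reads in a library, and the part of this list in the results was not tested. In both layers the senescence markers CDKN1A and CDKN2A rose and LMNB1, HMGB1 and MKI67 fell.

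At the mRNA level the 8 genes moved in different directions. SAT1 mRNA rose, OAZ2, OAZ1 and SRM mRNA rose by less, and ODC1 mRNA fell, while AMD1, SMS and AZIN1 did not pass the test. These 5 of 8 calls (edgeR quasi-likelihood test, Benjamini-Hochberg adjusted p under 0.15) stand beside 73.6% of all 12787 genes tested. In the higher direction 4 members were called, against 36.6% of all genes, and in the lower direction 1 was called, against 37% of all genes. The median log2 fold change of the members was 0.13, and that of all genes was -0.01. A share of called genes near the background is no property of the group, so the genes are described one by one. In such bulk libraries, fewer cells of a kind and less RNA per cell cannot be told apart.

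**Figure D1:**
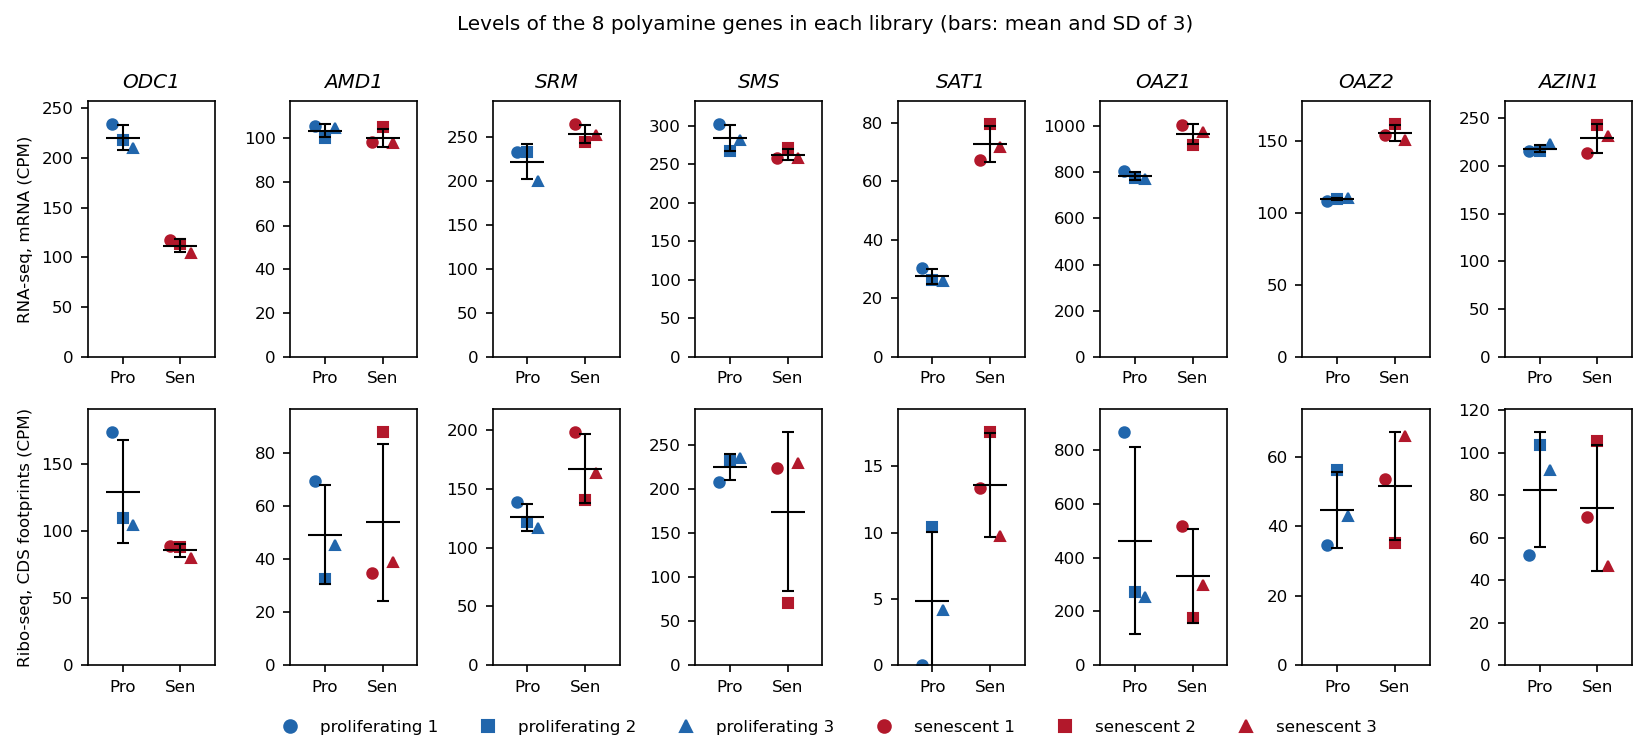
Levels of the 8 genes in each library, in CPM, for mRNA (top) and CDS footprints (bottom), with points for the 3 libraries of each state and bars for their mean and SD. ODC1 mRNA sat between 210 and 234 CPM in Pro and between 105 and 117 CPM in Sen, and SAT1 mRNA sat between 25.9 and 30.3 CPM in Pro and between 67.3 and 79.5 CPM in Sen.

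ODC1, a rate-limiting enzyme of polyamine synthesis (ENSG00000115758, chr2:10580094-10588453 on GRCh37, minus strand), measured 234, 217 and 210 CPM of mRNA in Pro 1 to 3 and 117, 113 and 105 CPM in Sen 1 to 3. All senescent libraries were below all proliferating ones. Its mRNA fell by 0.98 on the log2 scale (SE 0.07, edgeR adjusted p = 1.18e-10), which is 0.507 of the proliferating level, and the adjusted p stayed at or under 5.48e-08 in 15 alternative settings. Its footprints measured 174, 110 and 104 CPM in Pro (10, 74 and 175 reads) and 88.4, 87.9 and 79.7 CPM in Sen (132, 5 and 41 reads). The footprint groups did not overlap either, and the gap between them was narrower than for mRNA. RPF fell by 0.35 on the log2 scale (SE 0.19, edgeR adjusted p = 0.136), a call that 3 of 14 alternatives kept and that was lost on leaving out any one of Pro 2, Pro 3, Sen 1, Sen 2 or Sen 3, with adjusted p from 0.163 to 0.324.

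Translational efficiency (TE), the ratio of RPF to mRNA tested within lysates, rose for ODC1 by a log2 fold change of 0.56 (SE 0.21, edgeR adjusted p = 0.125). It was the only member called for TE among the 7 tested, where 9.37% of all 7473 genes were called. On the log2 scale the ratio was -0.36, -0.98 and -1.003 in Pro 1 to 3 and -0.40, -0.23 and -0.37 in Sen 1 to 3. The states thus differed in Pro 2 and Pro 3 but overlapped through the shallow Pro 1, which held 10 footprints of the gene. The call was kept in 7 of 15 alternatives and was lost without any one of Pro 2, Pro 3, Sen 1 or Sen 3, with edgeR adjusted p from 0.379 to 0.570, while the log2 fold change stayed between 0.50 and 0.64 in all 15. Without the lysate as a block, 3 members were called for TE, namely ODC1, SRM and AZIN1, but that fit called 1342 of 7473 genes against 700 with the block.

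AMD1, which supplies the aminopropyl donor (ENSG00000123505, chr6:111195973-111220082, plus strand) did not pass in any layer. Its mRNA measured 106, 99.9 and 104 CPM in Pro and 98.1, 105 and 97.5 CPM in Sen, and the groups overlapped (log2 fold change -0.04, SE 0.07, edgeR adjusted p = 0.612). AMD1 footprints numbered only 4, 22 and 76 in Pro and 52, 5 and 20 in Sen, and the RPF change of -0.14 had an SE of 0.28 (edgeR adjusted p = 0.712). The RPF change measured for ODC1 lay within 1 SE of this value. AMD1 TE changed by -0.07 (SE 0.28, edgeR adjusted p = 0.919).

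SRM, the spermidine synthase (ENSG00000116649, chr1:11114641-11120077, minus strand), was the only one of the 4 biosynthetic enzymes that rose. Its footprints measured 139, 122 and 117 CPM in Pro (8, 82 and 196 reads) and 198, 141 and 163 CPM in Sen (296, 8 and 84 reads), with every senescent library above every proliferating one. SRM RPF rose by a log2 fold change of 0.61 (SE 0.17, edgeR adjusted p = 0.00298), which passed in 11 of 14 alternatives but not without Sen 1 (0.44, adjusted p = 0.176) and not with DESeq2 (adjusted p = 0.378). SRM mRNA measured 234, 234 and 200 CPM in Pro and 265, 244 and 253 CPM in Sen. These groups also did not overlap, and the rise was small, with a log2 fold change of 0.19 (SE 0.08, edgeR adjusted p = 0.0294). The mRNA call rested on Pro 3, the lowest library, and was lost without it (0.12, edgeR adjusted p = 0.194) and with library totals in place of TMM factors (0.09, adjusted p = 0.313). The TE change of 0.32 (SE 0.19, edgeR adjusted p = 0.370) did not pass.

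Among the 7 members tested for RPF, 3 were called, against 54.4% of 7521 genes. The member called higher was SRM, where 27.5% of genes were, and those called lower were ODC1 and AZIN1, where 26.9% of genes were. With DESeq2, which called 1164 of the 7521 genes against 4088 with edgeR, none of the 3 passed, although all kept their direction.

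SMS, the spermine synthase (ENSG00000102172, chrX:21958827-22012955, plus strand), measured 302, 268 and 282 CPM of mRNA in Pro and 259, 271 and 258 CPM in Sen. These ranges overlapped through Pro 2 and Sen 2, and the log2 fold change of -0.11 (SE 0.07, edgeR adjusted p = 0.168) missed the threshold. It passed without Pro 2 (edgeR adjusted p = 0.135), without Sen 2 (0.0859) and with library totals (0.00986). SMS footprints measured 208, 232 and 236 CPM in Pro and 224, 70.3 and 229 CPM in Sen, where the low value came from 4 reads of the shallow Sen 2. RPF and TE changed by -0.11 (SE 0.17) and -0.02 (SE 0.18), with edgeR adjusted p of 0.627 and 0.974.

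SAT1 (ENSG00000130066, chrX:23801290-23804327, plus strand) had the largest mRNA change of the 8 genes. It measured 30.3, 26.3 and 25.9 CPM in Pro and 67.3, 79.5 and 71.8 CPM in Sen. The senescent libraries were all above the proliferating ones, by a fitted log2 fold change of 1.42 (SE 0.09, edgeR adjusted p = 7.28e-12), which ranked above 95.9% of all genes tested. On the CDS only 0, 7 and 7 footprints were found in Pro and 20, 1 and 5 in Sen, so that the gene did not pass the filter and has no RPF or TE value in the main comparison. With a minimum of 1 read instead, its RPF change was 1.05 (SE 0.54, edgeR adjusted p = 0.144), and its TE change was -0.31 (SE 0.56, adjusted p = 0.850). Without both shallow libraries the RPF change was 1.03 (SE 0.48, edgeR adjusted p = 0.0862). Both alternatives called SAT1 footprints higher in Sen, on at most 20 reads a library, and neither called a TE change.

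**Figure D2:**
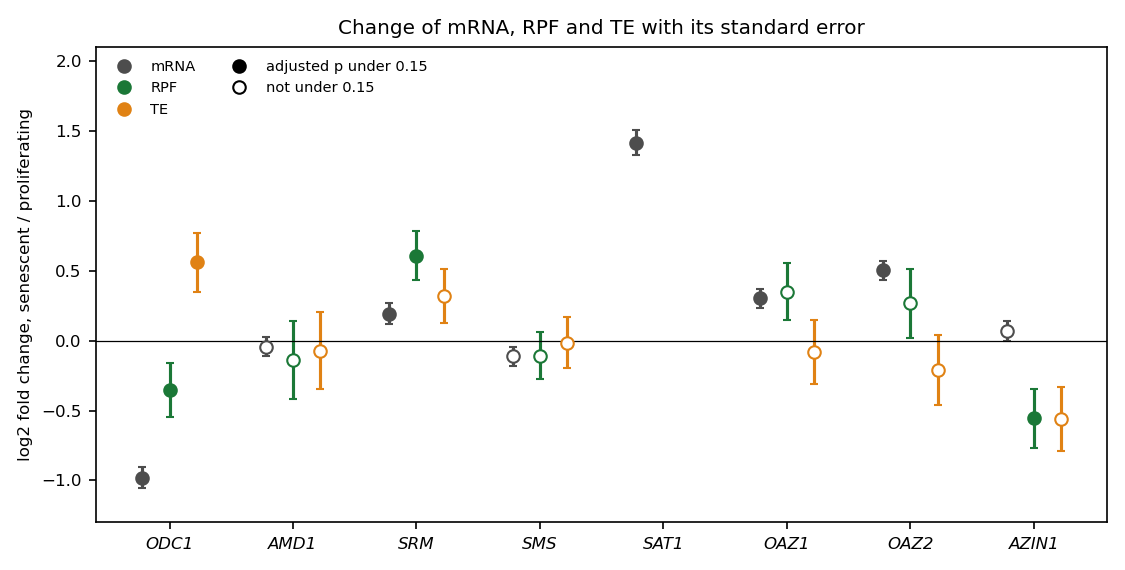
Log2 fold change of senescent over proliferating cells with its SE for mRNA, RPF and TE of each gene, filled where the edgeR adjusted p was under 0.15. ODC1 had mRNA at -0.98 and RPF at -0.35, AZIN1 had mRNA at 0.07 and RPF at -0.56, and SAT1 had an mRNA value only.

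OAZ1, the most abundant antizyme mRNA (ENSG00000104904, chr19:2269508-2273489, plus strand), measured 804, 775 and 770 CPM in Pro and 1003, 919 and 973 CPM in Sen. All senescent values were higher, and the log2 fold change was 0.30 (SE 0.07, edgeR adjusted p = 0.000738). In the reference transcript the OAZ1 CDS holds both the frame before the shift and the longer one after it. Whether the CDS counted here does so is not given in the sources used here. OAZ1 footprints measured 868, 270 and 254 CPM in Pro and 520, 176 and 297 CPM in Sen. The shallow libraries Pro 1 (50 reads) and Sen 2 (10 reads) held the highest and the lowest of these values. OAZ1 RPF changed by 0.35 (SE 0.21, edgeR adjusted p = 0.166), and its direction depended on the libraries. It was 0.71 (adjusted p = 0.00167) without both shallow libraries and -0.15 without Sen 1, and leaving out Pro 2 or Pro 3 also turned it negative. The TE change of -0.08 (SE 0.23, edgeR adjusted p = 0.883) was as unsettled.

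OAZ2 (ENSG00000180304, chr15:64979772-64995480, minus strand) measured 109, 110 and 110 CPM of mRNA in Pro and 154, 161 and 151 CPM in Sen. The rise of 0.50 on the log2 scale (SE 0.07, edgeR adjusted p = 1.35e-06) was far larger than the spread within either state. OAZ2 footprints numbered 2, 38 and 72 in Pro and 80, 2 and 34 in Sen, and neither RPF (0.27, SE 0.24, edgeR adjusted p = 0.394) nor TE (-0.21, SE 0.25, adjusted p = 0.696) passed. Of the 36 region values of each antizyme gene, 3 ended in a fraction of a read, 0.5. In both genes these were the CDS footprints of Pro 2, Pro 3 and Sen 1. How such fractions arose is not given in the sources used here, and whether reads were divided between the 2 antizymes was not tested. The counts do not separate ribosomes that shifted frame from those that stopped at the internal stop codon printed above, so frameshifting itself was not measured.

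AZIN1, the decoy that frees ODC1 from antizyme (ENSG00000155096), had fewer footprints on its CDS in Sen, and its mRNA did not pass the test. Its mRNA measured 215, 216 and 222 CPM in Pro and 213, 242 and 231 CPM in Sen (log2 fold change 0.07, SE 0.07, edgeR adjusted p = 0.390). Its CDS footprints measured 52.1, 104 and 91.8 CPM in Pro (3, 70 and 154 reads) and 69.7, 105 and 46.7 CPM in Sen (104, 6 and 24 reads). Among the 4 deeper libraries both senescent values were below both proliferating ones, whereas of the shallow libraries, with 3 and 6 reads, Pro 1 was the lowest of Pro and Sen 2 the highest of Sen. RPF fell by 0.56 on the log2 scale (SE 0.21, edgeR adjusted p = 0.0255) and by 0.62 without both shallow libraries (adjusted p = 0.0147). The call was lost without Sen 3 (-0.38, edgeR adjusted p = 0.212) and with DESeq2 (adjusted p = 0.611), and it passed in 11 of 14 alternatives. The TE change of -0.56 (SE 0.23, edgeR adjusted p = 0.160) just missed the threshold, and 6 of 15 alternatives, among them the one without both shallow libraries (-0.62, adjusted p = 0.0877), put it past.

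The order of the genes was compared per length, as RNA-seq CPM per kilobase of the reference transcript. In Pro it ran from OAZ1 at 682 ± 16.3 (SD, n = 3) over SRM at 176 ± 15.5, SMS at 167 ± 10.1, ODC1 at 88.9 ± 4.94, OAZ2 at 56.7 ± 0.51, AZIN1 at 51.9 ± 0.93 and AMD1 at 30.2 ± 0.87 to SAT1 at 26.2 ± 2.30. SRM and SMS were the only neighbours whose library ranges overlapped. In Sen the order became OAZ1 at 840 ± 37.2, SRM at 202 ± 8.14, SMS at 154 ± 4.39, OAZ2 at 80.3 ± 2.87, SAT1 at 69.5 ± 5.91, AZIN1 at 54.5 ± 3.52, ODC1 at 45.1 ± 2.61 and AMD1 at 29.3 ± 1.19, with no neighbours overlapping. ODC1 thus moved from place 4 to place 7, and SAT1 from place 8 to place 5. The antizymes OAZ1 and OAZ2 together were 8.02, 8.34 and 8.59 times as high as ODC1 per length in Pro 1 to 3, and 20.1, 19.4 and 21.9 times as high in Sen 1 to 3. AZIN1 stood at 0.54, 0.59 and 0.63 of ODC1 in Pro and at 1.07, 1.26 and 1.30 of it in Sen. These ratios were not tested, and their changes between states follow from the single changes given above. Levels per length rest on reference lengths, which may differ from the regions counted. In Pro, RNA-seq reads per 100 bases of 5′ UTR, CDS and 3′ UTR numbered 301, 388 and 43.0 for ODC1. For OAZ1 they numbered 7003, 2583 and 167. The order of the genes and the size of these ratios are thus approximate.

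Per length of CDS, the footprints showed OAZ1 first and SAT1 last in both states. In Pro the ranges of neighbours in the order overlapped among ODC1, OAZ2, AZIN1 and AMD1. In Sen they overlapped among all genes between OAZ1 and SAT1, SRM and SMS included. When CDS footprints were set against CDS reads of the RNA-seq library, all 8 genes lay below the median TE of the 7473 genes tested for TE. SAT1 was placed against these genes although its few footprints did not pass their filter. Its low place was therefore partly set by that filter. In Pro their percentiles ran from 3.33 (SAT1) over 5.77 (SRM), 6.70 (OAZ1), 8.38 (ODC1), 9.10 (AZIN1), 18.9 (AMD1) and 19.8 (SMS) to 21.2 (OAZ2). In Sen they ran from 1.26 (SAT1) to 21.7 (AMD1), and ODC1 stood at 18.4. All of these mRNAs therefore held fewer CDS footprints per mRNA read than most genes did. This is a description of levels, with no test.

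Footprints in the 5′ UTR set AZIN1 and SAT1 apart from the other members. AZIN1 had 4, 55 and 92 of them in Pro 1 to 3 and 95, 4 and 23 in Sen 1 to 3, beside 227 CDS footprints in Pro and 134 in Sen. In Pro 2 the 5′ UTR held 55 of 125 footprints of 5′ UTR and CDS together (Wilson 95% interval 35.6% to 52.8%). In the other 3 deeper libraries it held 37.4% (Pro 3, 31.6 to 43.6), 47.7% (Sen 1, 40.9 to 54.7) and 48.9% (Sen 3, 35.3 to 62.8) of them. In these 4 libraries from 99.0% to 99.5% of the genes with at least 20 such footprints in the same library had a lower share. Per base of the reference transcript, the AZIN1 5′ UTR (590 bases, with 3 upstream AUG codons) held 1.52 times the footprint density of its CDS in Pro and 2.08 times in Sen, while its RNA-seq reads had ratios of 0.95 and 1.02. Upstream starts other than AUG were not searched for, and the counts do not place a footprint within the 5′ UTR. The 5′ UTR share of its RNA-seq reads was also high, at 27.6% to 34.6%, above 86.5% to 91.2% of the genes with at least 20 such reads. How the deposited tables treat a base that is 5′ UTR in one transcript and CDS in another is not given in the sources used here.

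AZIN1 was the only member with enough reads to be tested for a change upstream. Scaled to the 5′ UTR footprints of all genes, its 5′ UTR footprints changed by a log2 fold change of 0.61 (SE 0.79, edgeR adjusted p = 0.703), and 14.2% of the 351 genes tested were called. Scaled to the CDS footprints of the library instead, they measured 73.5, 80.3 and 53.5 CPM in Pro 1 to 3. In Sen 1 to 3 they measured 56.8, 73.1 and 39.4 CPM, so this scaling did not show a rise. Relative to its CDS footprints, with each region scaled by its own TMM factors, the 5′ UTR footprints changed by 1.04 (SE 0.50, edgeR adjusted p = 0.272). There 4.31% of 325 genes were called, and the median of all genes was -0.29. Neither fitted value passed. As unscaled sums, the AZIN1 5′ UTR held 66.5 footprints per 100 on the CDS in Pro and 91.0 in Sen. Without both shallow libraries the fitted log2 change of the ratio was 1.35 (edgeR adjusted p = 0.0208). With library totals in place of TMM factors it was -1.88 (adjusted p = 0.316). Under library totals the median of all genes moved to -3.09. Just 5 symbols (OR1F1, TRIM55, TRIM7, MYNN and DPP9) held between 20.7% and 98.2% of the 5′ UTR reads of a Ribo-seq library. These symbols were then left out, an alternative chosen after the data were seen. The fitted log2 change of the AZIN1 ratio was then 0.91 (edgeR adjusted p = 0.346) with TMM factors and 1.16 (adjusted p = 0.144) with library totals.

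SAT1 had more footprints in its 5′ UTR than on its CDS in both states, 16 beside 14 in Pro and 70 beside 26 in Sen. In the 5′ UTR they numbered 1, 8 and 7 in Pro and 55, 2 and 13 in Sen, which is 18.4, 11.7 and 4.07 CPM in Pro and 32.9, 36.6 and 22.3 CPM in Sen when scaled to the CDS footprints of the library. Every senescent library was above every proliferating one, although Pro 1 and Sen 2 rest on 1 and 2 reads. In Sen 1, the library with the most reads, the 5′ UTR held 73.3% of the 5′ UTR and CDS footprints (Wilson 95% interval 62.4 to 82.0), and 99.7% of the 7945 genes compared had a lower share. Among its RNA-seq reads the 5′ UTR share ran from 32.8% to 43.9% over the 6 libraries, above 92.0% to 96.9% of genes. The reference 5′ UTR is 179 bases long and holds 2 upstream AUG codons, the first opening the 15-base frame printed above and the second opening a 90-base frame that overlaps the CDS.

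The SAT1 5′ UTR footprints did not pass the filter of the main comparison and had no test there. Without both shallow libraries they were higher in Sen by a log2 fold change of 3.12 (SE 0.53, edgeR adjusted p = 8.22e-06), in a fit that called 228 of 886 genes. This fit scales to the 5′ UTR footprints of all genes. Scaled to CDS footprints, the same libraries measured 11.7 and 4.07 CPM in Pro and 32.9 and 22.3 CPM in Sen, a smaller rise. SAT1 mRNA rose by 1.42 on the log2 scale in this setting. With single libraries left out, the SAT1 5′ UTR footprints were tested in 4 fits. They passed without Pro 1, Sen 2 or Sen 3, but not without Pro 3 (2.24, edgeR adjusted p = 0.384). Without the 5 leading symbols the change was 2.68 (SE 0.51, edgeR adjusted p = 0.0188), with 40 of 149 genes called, and with a minimum of 1 read in any library it was 2.42 (SE 1.17, adjusted p = 0.587), where 0 of 8081 genes were called. Relative to the CDS footprints, with each region scaled separately, the change was 2.21 (SE 0.79, edgeR adjusted p = 0.0711) without both shallow libraries. With a minimum of 1 read it was 1.74 (SE 0.93, adjusted p = 0.889). Summed over the 3 libraries of each state, SAT1 had 114 footprints in the 5′ UTR per 100 on the CDS in Pro and 269 in Sen, whereas its RNA-seq reads gave 74.7 and 55.5 per 100. The ratio was thus higher in Sen for footprints and lower for RNA reads.

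**Figure D3:**
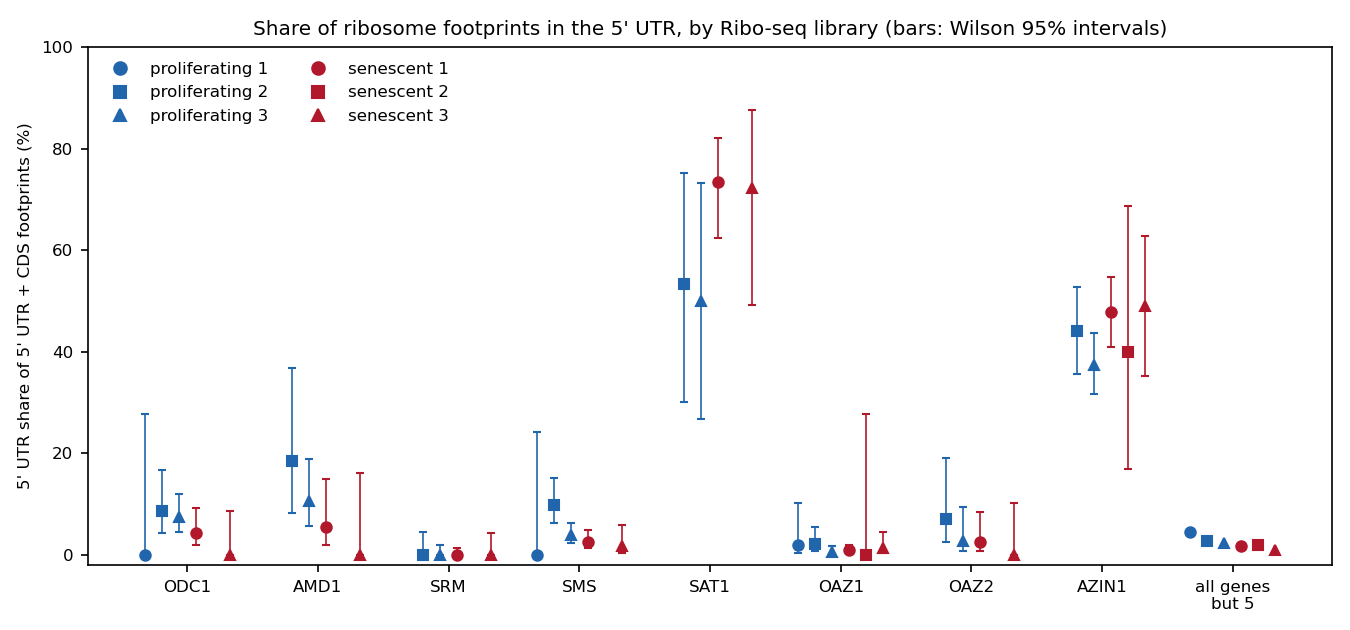
Share of 5′ UTR among 5′ UTR and CDS footprints, in percent with Wilson 95% intervals, for each gene and Ribo-seq library with at least 10 such footprints. The last column gives the share over all genes except the 5 symbols with the most 5′ UTR reads. AZIN1 lay between 37.4% and 48.9% and SAT1 between 50.0% and 73.3%, against 0.886% to 4.47% over all genes, and SRM had none.

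The other 6 genes had few upstream footprints. For ODC1, whose reference 5′ UTR has 1 upstream AUG, they numbered 0, 7 and 14 in Pro and 6, 0 and 0 in Sen, or 21 beside 259 CDS footprints in Pro and 6 beside 178 in Sen. AMD1, whose short upstream frame is the textbook case of control by polyamines, had 15 beside 102 in Pro and 3 beside 77 in Sen. Both sums were lower relative to the CDS in Sen, with shares in single libraries of 18.5% (8.18 to 36.7) and 10.6% (5.67 to 18.9) for AMD1 in Pro 2 and Pro 3, and 5.45% (1.87 to 14.9) in Sen 1, so that the intervals overlapped. SMS had 33 beside 563 and 12 beside 456, and OAZ2 had 5 beside 112 and 2 beside 116.5. OAZ1, with no upstream AUG in its 79-base reference 5′ UTR, had 7 beside 657 in Pro and 10 beside 939.5 in Sen. SRM, with a 75-base reference 5′ UTR and no upstream AUG, had no 5′ UTR footprint in any library. A count of 0 allows up to 1.05 per 100 CDS footprints in Pro and 0.773 in Sen, and the RNA-seq libraries held 103 and 163 reads of this region. Over all genes without the 5 leading symbols, the 5′ UTR share ran from 2.24% to 4.47% in Pro and from 0.886% to 1.98% in Sen, so that it was lower in Sen over all genes too. None of these 6 genes had enough upstream reads for the main test. Without both shallow libraries the ratio to the CDS changed by -0.62 for ODC1 (edgeR adjusted p = 0.722), by -1.12 for AMD1 (adjusted p = 0.596) and by -0.62 for SMS (adjusted p = 0.590), and none passed.

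Reads downstream of the CDS showed no called difference between the states. The ratio of 3′ UTR to CDS reads in the RNA-seq libraries was tested for all 8 genes and called for none by edgeR, with no member at an unadjusted p under 0.05, where 2.31% of 9397 genes were called. DESeq2 also called none. The log2 changes ran from -0.28 (SE 0.27) for SAT1 to 0.06 (SE 0.11) for OAZ1. In the Ribo-seq libraries the 3′ UTR held at most 4 footprints of a member in any library.

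Around the 8 genes, 37 other genes of the pathway were examined, of which 30 had enough RNA-seq reads for a test. In mRNA 9 rose, 10 fell and 11 did not pass, with a median log2 fold change of 0.01, beside 73.6% called over all genes. In RPF 3 rose, 7 fell and 10 did not pass of 20 tested, with a median of -0.09, beside 54.4% over all genes, and in TE 1 fell of 20, beside 9.37%. None of these shares was above that over all genes. ATP13A2, SLC7A2, AZIN2 and MAT2A were the 4 genes with an absolute log2 fold change of at least 1 in mRNA. The uptake transporter for arginine SLC7A2 fell from 153 ± 8.74 to 63.7 ± 3.09 CPM in mRNA (SD, n = 3), a log2 fold change of -1.27 (SE 0.07, edgeR adjusted p = 2.28e-12), and its RPF fell by 0.89 (SE 0.19, adjusted p = 6.04e-05). MAT2A, which makes S-adenosylmethionine, went from 249 ± 7.28 to 115 ± 7.18 CPM in mRNA, a log2 fold change of -1.11 (SE 0.07, edgeR adjusted p = 1.04e-11), and its RPF fell by 0.71 (SE 0.17, adjusted p = 0.000430).

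ATP13A2, a lysosomal exporter of polyamines, rose from 36.3 ± 3.98 to 98.9 ± 10.0 CPM in mRNA, a log2 fold change of 1.45 (SE 0.09, edgeR adjusted p = 8.90e-12). Its footprints rose by 1.63 (SE 0.29, edgeR adjusted p = 3.89e-06). AZIN2, another antizyme inhibitor, rose from 3.50 ± 0.73 to 7.68 ± 1.21 CPM of mRNA (1.11, SE 0.18, edgeR adjusted p = 1.16e-05) and had at most 5 CDS footprints in any library. The single gene called in TE was APIP, of the methylthioadenosine salvage route, with a log2 change of -0.96 (SE 0.35, edgeR adjusted p = 0.117), while its mRNA rose by 0.32 (adjusted p = 0.0182). APIP had 2, 24 and 43 CDS footprints in Pro and 31, 0 and 10 in Sen. MYC was singled out after its values were seen, because of the E-boxes printed above. Its mRNA fell by 0.64 on the log2 scale (SE 0.08, edgeR adjusted p = 8.50e-07) and its RPF by 0.43 (SE 0.20, adjusted p = 0.0838). Of the E-box genes, ODC1 mRNA fell and SRM mRNA rose.

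**Figure D4:**
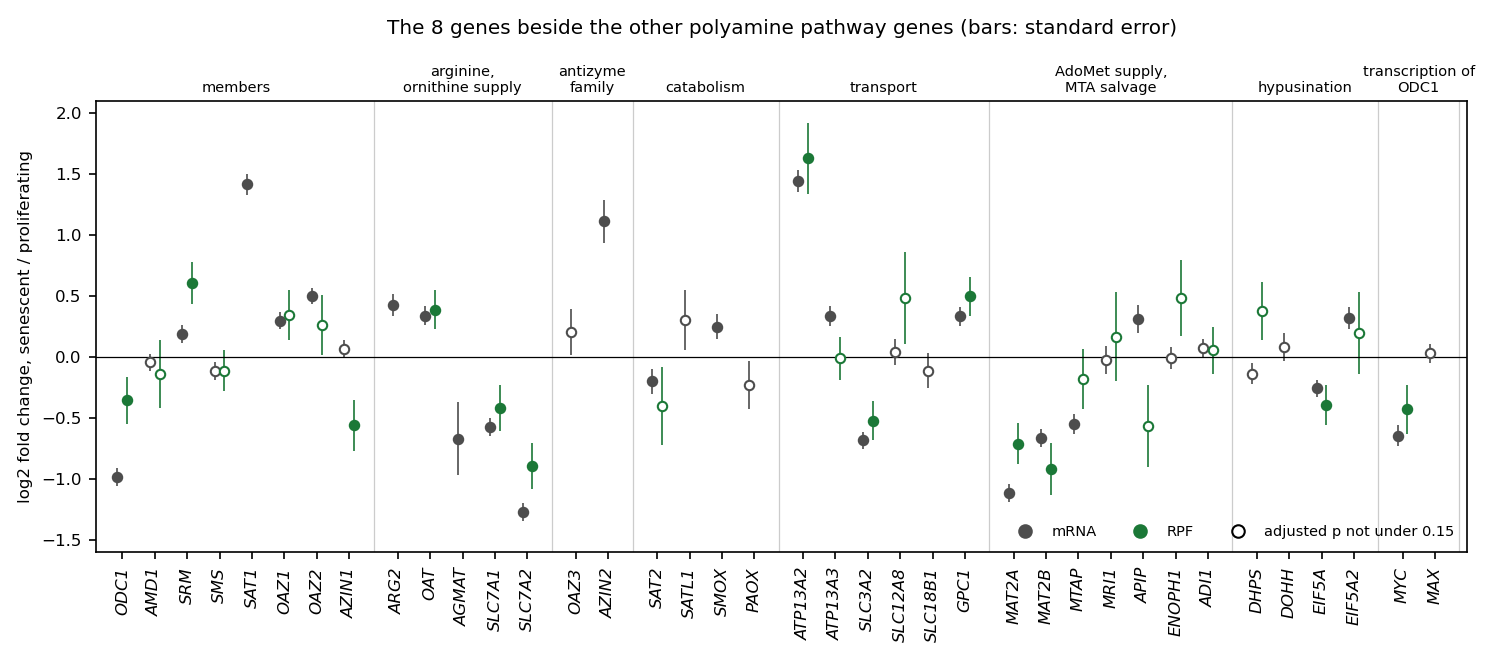
Log2 fold change with its SE in mRNA and RPF for the 8 genes and the 30 other pathway genes tested, grouped by role, filled where the edgeR adjusted p was under 0.15. ATP13A2 was highest, at 1.45 in mRNA and 1.63 in RPF, and SLC7A2 was lowest, at -1.27 in mRNA.

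By the distance between log2 CPM profiles over the 12 libraries, centred within each library type, the genes nearest to each member were found among the 7473 genes tested for TE. GLUL, PPT1 and SRSF3 were nearest to ODC1 (distances 0.50, 0.54 and 0.54), PRMT2, PLAU and SELENON to SRM (0.25, 0.32 and 0.37), and FBXO38, MRPS5 and APC to AZIN1 (0.38, 0.38 and 0.41). DDX41, NTPCR and TUBGCP2 were nearest to AMD1, and TMEM87A, KAT5 and PSMB2 to SMS. The antizymes had different neighbours, with CIB1, SMYD3 and KIAA1549 for OAZ1 and TMED10, SLC20A2 and TIMM17A for OAZ2. No member was among the 3 nearest of another, and SAT1, untested for TE, was not ranked.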

How the data were processed

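Per the labels, the 12 libraries were grouped by state and assay. The deposited values are unscaled reads per gene and region and were treated as estimated counts, because most are whole and a few are simple fractions. The authors' processing notes name cutadapt 1.18, Bowtie 1.0.1, SAMtools 1.8 and DESeq2 1.22.2 without their roles, and the genome build, annotation release, strand rule and handling of reads with several placements are not given in the sources used here. Region sums were rounded to whole numbers, and 16451 symbols with at least 1 CDS read in some library were kept. The tests had been planned for plain counts.

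Genes were tested with edgeR 4.0.16 (quasi-likelihood, TMM factors, filterByExpr, two-sided) in R 4.3.3 over all genes, with Benjamini-Hochberg adjustment and a threshold of 0.15, the false discovery rate used in the study. TE and both region ratios were tested as interactions with the lysate or library as a block, which follows from the protocol, since both library types come from 1 lysate. Scaling factors were taken within each library type or region, so a fitted ratio change is relative to the trend over all genes. The deviations of the 2 libraries of a lysate from their group means correlated by -0.07 to 0.09 over 7473 genes. TE values per lysate had 0.5 added to each count. SE is the coefficient divided by the root of its F statistic. Scripts were tested on simulated data. Alternatives were DESeq2 1.42.0, limma voom 3.58.1, other scalings and filters, and left-out replicates. Intervals are Wilson 95% intervals, and with the floor of 3 counts they cover counting error only.

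Reference sequences came from GENCODE v44lift37 (GRCh37) and RefSeq (GRCh38.p14), matched by symbol. The members and lists were chosen with earlier results of these data known. Named genes were the 8 members, pathway genes called in mRNA or RPF with an absolute log2 fold change of at least 1 or called in TE, and the 3 nearest profiles of each member. Of the lists' genes, ARG1, SLC22A3, MAT1A, SFTPC and CD3E had no CDS read.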

Additional observations from a re-analysis of the deposited data

How the results depend on the processing

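The Ribo-seq libraries limit these results, since Pro 1 and Sen 2 hold 54421 and 54708 CDS reads and few footprints of any member. They also differ in make-up. Reads on the CDS were 34.35%, 84.35% and 88.82% of all reads counted in Pro 1 to 3. In Sen 1 to 3 they were 77.81%, 14.98% and 54.7%, so the deeper Sen 3 also stood apart. Per 100 CDS reads, the 3′ UTR held 15.96, 2.05 and 1.46 reads in Pro and 3.84, 36.38 and 6.02 in Sen. Of 467 single values over the alternatives, 390 kept their direction and side of the threshold, 27 no longer passed, 19 newly passed and 31 changed sign. For mRNA, ODC1, SAT1, OAZ1 and OAZ2 passed in all 15 alternatives, and 4 to 6 members were called. Library totals moved the median of all genes to -0.11, lost SRM, added SMS and AMD1, and turned AZIN1 to -0.035. With CDS reads only, AMD1 was at 0.0041. For RPF, DESeq2 and a minimum of 10 counts in every library (1 member tested) called 0 members, and leaving out 1 library called 1 (without Sen 1) to 4 (without Pro 1). OAZ1 RPF reversed to -0.45 with DESeq2 and ran from -0.15 to 0.58 on leaving out single libraries, and AMD1 RPF from -0.30 to 0.11. For TE, 0 members were called with DESeq2 (28 of 7473 genes called), limma voom (43), a threshold of 0.05 (231), and minimums of 1 read (440 of 13538) or 10 counts (241 of 828, with 1 member tested), and 2 with RLE factors, library totals, CDS reads only or without both shallow libraries, while leaving out 1 library gave 0 (Pro 2, Pro 3, Sen 1 or Sen 3) to 2 (Pro 1). AMD1 TE was 0.053 with DESeq2 and 0.029 with limma voom, SMS TE was 0.047 and OAZ1 TE 0.32 without both shallow libraries, and OAZ1 TE was 0.10 with limma voom. On leaving out 1 library, TE ran from -0.21 to 0.18 for AMD1, from -0.090 to 0.094 for SMS and from -0.59 to 0.18 for OAZ1. For 5′ UTR footprints, 1 member (SAT1) was called without both shallow libraries and without the 5 leading symbols under either scaling, and leaving out 1 library gave 0 to 1. AZIN1 was at -1.72 there with library totals. For the ratio to the CDS, 2 members (AZIN1 and SAT1) were called without both shallow libraries, 1 (AZIN1) with library totals without the 5 symbols, and 0 to 1 on leaving out 1 library, and AZIN1 was at -1.88 with library totals. For the ratio of 3′ UTR to CDS, SRM was at 0.021 with DESeq2, 0.00089 with a minimum of 1 read and 0.27 without both shallow libraries, and ran from -0.21 to 0.17 on leaving out 1 library, and OAZ1 was at -0.027 with library totals. The causes were not tested.

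The replicate numbers were not taken to pair the states. Same-numbered Pro and Sen libraries correlated by 0.08, -0.20 and 0.23 in mRNA and 0.03 to 0.05 in RPF. The libraries of a lysate, paired by protocol, correlated by only -0.07 to 0.09, so this measure cannot show whether the numbers pair the states. With the number as a replicate block, 5 members were called in mRNA and 0 in RPF, and OAZ1 RPF was at -0.25. Without the lysate as a block, 3 members were called in TE, with SMS at 0.014 and OAZ1 at 0.13, and 1 (AZIN1) in the ratio of 5′ UTR to CDS footprints.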
